A study of Mus musculus with 4 samples.

Results

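The epithelial alarmins and a set of interleukin-1 (IL-1) family genes were followed in stem cells of mouse skin squamous cell carcinoma that did or did not report transforming growth factor beta (TGF-β) signalling. The set is 10 genes taken by name, out of 31729 named genes with a value in the deposited files: the cytokine genes Il33, Tslp, Il1a, Il1b, Il18 and Il24, the antagonist gene Il1rn, and the receptor genes Il1rl1, Il1r2 and Il1rap. Of these 10 genes, 9 passed the filter on low values and were tested, and Il1rl1 did not pass it. Il33 was higher and Tslp was lower in reporter positive cells, and these were the 2 genes of the set past the threshold.

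Messenger RNA was sequenced from cells of primary skin tumours with mCherry as the reporter of TGF-β signalling. There were 2 reporter positive libraries (TGF-β signalling present) and 2 reporter negative libraries (TGF-β signalling absent), 1 of each in experiments 1 and 2. All 4 libraries carry TetO-Hras, in which a tetracycline operator drives the Hras oncogene, together with the LV-rtTA3-TGF-beta reporter. They share the strain C57BL/6 X FBV and the skin epidermis as origin of the carcinoma. They also share the sort, which removed lineage positive cells and took cells by integrin α6 and CD44. Nothing in the labels says how many animals gave each library or whether the experiments used different ones, so p-values measure the spread between these libraries, which may be technical. Levels are FPKM, fragments normalised to transcript length and to sequencing depth, as the authors deposited them, so they are per length and can be set side by side between genes.

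Alarmins are molecules, some of them cytokines, that epithelial and other cells store or make and release on damage. IL-33 is kept in the nucleus and, once released, binds ST2 (encoded by Il1rl1) on immune cells, together with the shared receptor chain IL-1RAP. TSLP signals through its receptor Crlf2 and the IL-7 receptor chain. IL-1α and IL-1β act through IL-1R1 and IL-1RAP, the antagonist encoded by Il1rn blocks that receptor, and IL-1R2 is a decoy that binds IL-1 without a signal. IL-18 is made as a precursor that caspase-1 cuts, as is IL-1β. IL-24 is not an IL-1 family cytokine but belongs to the IL-20 group, which acts on epithelial cells.

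Depth, taken as coverage over FPKM, was 3.55 and 3.29 aligned gigabases for the reporter positive libraries, against 3.13 and 3.75 aligned gigabases for the reporter negative libraries. Keratinocyte markers summed to 5860 and 5941 FPKM in the reporter positive libraries, against 3518 and 3306 FPKM in the reporter negative libraries. Nearly all of that sum was Sfn and Perp, and without them it was 258 and 293 FPKM in the reporter positive libraries, against 327 and 384 FPKM in the reporter negative libraries. Of the 8 markers, 6 had a value and each was above 25 FPKM in every library, while Krt5 and Krt14 were not analysed here. Of the 6, Sfn, Perp and Cdh1 were higher and Epcam, Trp63 and Lamb3 lower in reporter positive cells in both experiments, 0 passed the threshold, and the median log2 fold change was -0.09. Among markers of T, NK and innate lymphoid cells 11 of 11 stayed below 1 FPKM in each library. The median change of all 11969 genes tested was -0.18 on the log2(FPKM + 1) scale with the deposited values and 0.01 after median-of-ratios scaling, and the changes below stand beside that shift.

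Il33 (ENSMUSG00000024810, chromosome 19, 29999604 to 30035208, plus strand, mm9) has alternative first exons in the annotation, so the starts of its transcripts are shown first. The downstream start (ENSMUST00000025724) is at 30020280, inside the gene, and the upstream start (ENSMUST00000120388) lies 20676 bases before it at 29999604. The annotated coding regions of both transcripts give a protein of 266 residues. Their promoters, from 250 bases before to 50 bases after the start, come from RefSeq on build GRCm38.p6, plus strand, at chr19:29945540-29945839 for the downstream start and chr19:29924863-29925162 for the upstream start. The RefSeq start was that of the GENCODE M21 transcript for the downstream form and 1 base from it for the upstream form. Capitals mark the letters TATAAA.
Promoter of the downstream start: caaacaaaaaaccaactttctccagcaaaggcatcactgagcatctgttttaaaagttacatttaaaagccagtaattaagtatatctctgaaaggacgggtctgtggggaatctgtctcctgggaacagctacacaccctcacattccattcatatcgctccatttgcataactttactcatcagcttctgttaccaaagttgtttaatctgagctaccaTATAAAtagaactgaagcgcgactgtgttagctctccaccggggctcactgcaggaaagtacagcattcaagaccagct
Promoter of the upstream start: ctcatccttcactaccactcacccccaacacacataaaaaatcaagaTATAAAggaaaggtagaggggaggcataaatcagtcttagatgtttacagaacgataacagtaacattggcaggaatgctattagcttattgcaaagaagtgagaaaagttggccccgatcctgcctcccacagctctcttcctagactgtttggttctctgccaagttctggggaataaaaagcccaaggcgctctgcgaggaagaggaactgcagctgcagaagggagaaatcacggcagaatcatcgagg

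TATAAA lay from position -29 to -24 at the downstream start and from -203 to -198 at the upstream start, on the plus strand in both. Searched on both strands, TATAAA was found in 13.6% of 32851 RefSeq promoters of this length. The AP-1 motif TGANTCA, held by 7.81% of those promoters, the Smad motif CAGACA, held by 21%, and an NF-kB motif of GGG, any 5 letters and CC, held by 50.8%, were not in either window.

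All FPKM of Il33 lay on the downstream form in each of the 4 libraries. The upstream form was listed at 0 in all of them, and the upper bound of its deposited interval, which covers counting error only, was at most 0.0269 FPKM. It was marked as fully supported by reads in the reporter negative library of experiment 2, so that 0 can be a failed estimate. Il33 stood at 151 and 137 FPKM in the reporter positive libraries of experiments 1 and 2, against 32.4 and 32.6 FPKM in the reporter negative libraries. Both reporter positive libraries were far above both reporter negative ones, and the levels did not overlap. The means were 144 ± 10 FPKM in reporter positive cells and 32.5 ± 0.143 FPKM in reporter negative cells (SD, n = 2 each), a ratio of 4.43. The fitted log2 fold change was 2.11 ± 0.13 (limma, Benjamini-Hochberg adjusted p = 0.0083), and the differences within experiments 1 and 2 were 2.19 and 2.04. Ordered by p, Il33 was number 31 of the 11969 genes. With 1 library left out, Il33 stayed past the threshold without reporter negative replicate 1 (adjusted p = 0.045, limma) and missed it without reporter positive replicate 1 (0.0554), reporter positive replicate 2 (0.0581) and reporter negative replicate 2 (0.071), while its log2 fold change stayed between 2.04 and 2.18.

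**Figure D1:**
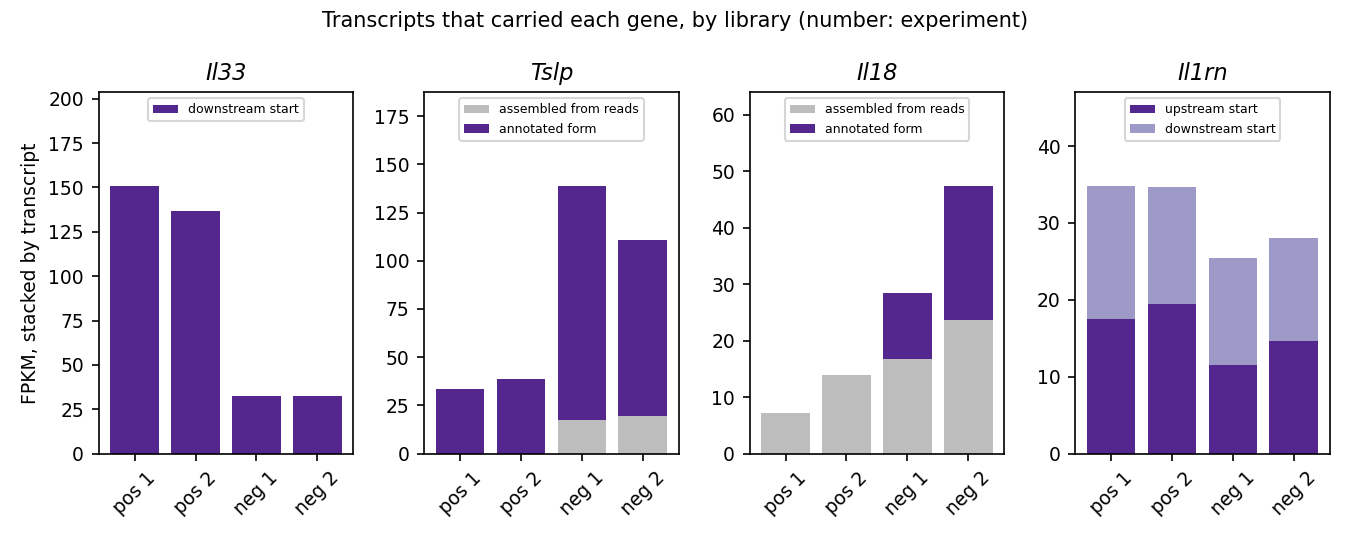
FPKM of Il33, Tslp, Il18 and Il1rn in each library, stacked by the transcript that carried it (pos, reporter positive; neg, reporter negative; the number is the experiment; grey, forms assembled from reads). The downstream form carried the whole of Il33 in each library, and the annotated form of Il18 was above 0 in the 2 reporter negative libraries and at 0 in the 2 reporter positive ones.

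Tslp (ENSMUSG00000024379, chromosome 18, 32975037 to 32979453, plus strand), the other epithelial alarmin of the set past the threshold, went the opposite way. It stood at 33.4 and 38.9 FPKM in the reporter positive libraries, against 139 and 110.5 FPKM in the reporter negative libraries. Each reporter positive library was below each reporter negative one. The means were 36.1 ± 3.85 FPKM in reporter positive cells and 125 ± 20.1 FPKM in reporter negative cells (SD, n = 2 each), 3.45 times as much in the reporter negative cells. The fitted log2 fold change was -1.75 ± 0.18 (limma, adjusted p = 0.0186), with -2.02 in experiment 1 and -1.48 in experiment 2. Without any 1 of the 4 libraries Tslp missed the threshold, at an adjusted p of 0.066 to 0.102 (limma) and a log2 fold change of -1.92 to -1.59. In the reporter negative libraries 12.5% and 17.6% of its FPKM lay on forms assembled from the reads, and no such form was listed in the reporter positive ones. With its annotated form (ENSMUST00000025237) alone the log2 fold change was -1.52 and did not pass (limma, adjusted p = 0.0769). Within a library, the Il33 level was 4.52 and 3.52 times the Tslp level in reporter positive cells, against 0.233 and 0.295 times in reporter negative cells.

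These 2 of the 9 tested genes compare with 5.07% called among all 11969 genes, and 1 called higher and 1 called lower compare with 2.55% and 2.52%. Both groups' libraries stood apart with reporter positive above in 4 genes of the set (Il33, Il1a, Il1rn and Il24), as in 15.3% of all tested genes, and with reporter negative above in 3 (Tslp, Il18 and Il1r2), as in 42.6%. That makes 7 of 9, where 57.9% of all tested genes had libraries that stood apart. The libraries overlapped in Il1b and Il1rap. The median log2 fold change of the 9 genes was 0.37, beside -0.18 over all tested genes. With the experiment number as a block 4 of the 9 passed, where 10.4% of all genes did. Il33 was the 1 higher (4.09% of all genes), and Tslp, Il18 and Il1r2 were the 3 lower (6.36%). With genes listed at 0 in any library left out 5 passed, where 10.5% of all genes did, 2 higher (Il33 and Il1a, 4.05%) and 3 lower (Tslp, Il18 and Il1r2, 6.46%). With both changes these 5 passed as well, where 27.3% of all genes did, 7.99% higher and 19.4% lower.

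**Figure D2:**
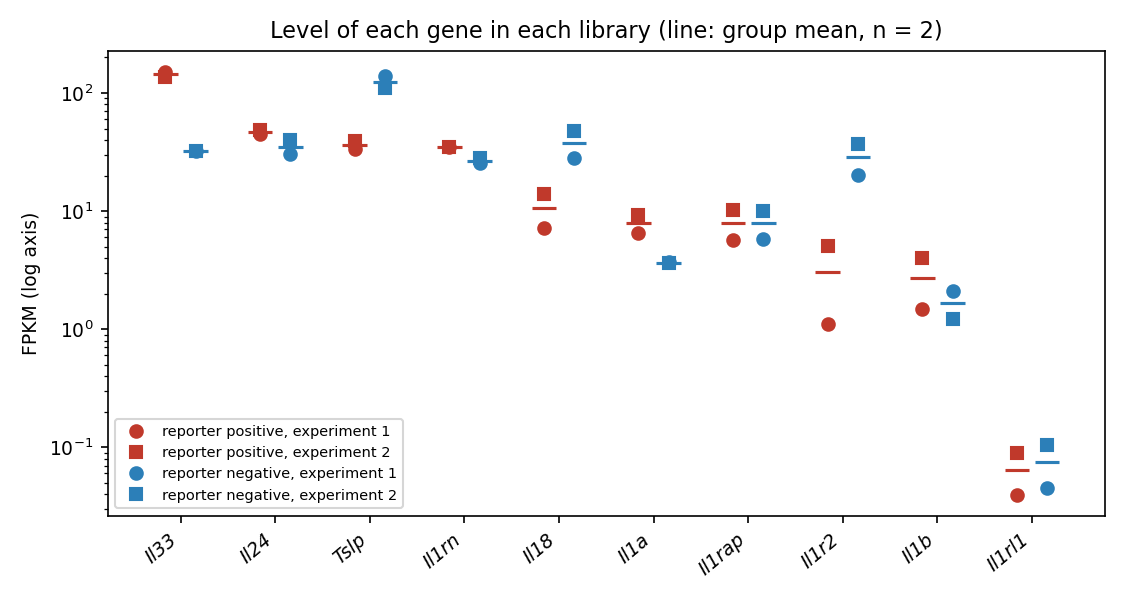
Level of each of the 10 genes in FPKM on a log axis, by library, with reporter positive left of reporter negative and a line at the mean of each group (n = 2). Il33 at 151 and 137 FPKM and Tslp at 139 and 110.5 FPKM are the highest levels, in opposite fractions.

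Il1a (ENSMUSG00000027399, chromosome 2, 129125346 to 129135708, minus strand), the IL-1 form that is active without cleavage, was low in both fractions. It stood at 6.58 and 9.28 FPKM in the reporter positive libraries, against 3.72 and 3.61 FPKM in the reporter negative libraries. The reporter positive libraries were the higher ones in both experiments, and the groups did not overlap. The means were 7.93 ± 1.91 FPKM in reporter positive cells and 3.66 ± 0.0789 FPKM in reporter negative cells (SD, n = 2 each). The log2 fold change of 0.92 ± 0.22 did not pass (limma, adjusted p = 0.09, and 0.0621 with the experiment block). It passed once genes listed at 0 were left out of the fit (limma, adjusted p = 0.0485).

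Il1b (ENSMUSG00000027398, chromosome 2, 129190306 to 129196875, minus strand), which encodes the secreted IL-1 form that myeloid cells make in large amounts, stayed below 4 FPKM. It stood at 1.48 and 3.99 FPKM in the reporter positive libraries, against 2.1 and 1.21 FPKM in the reporter negative libraries. The highest and the next highest value came from different fractions, and the groups overlapped. The log2 fold change was 0.43 ± 0.40 (limma, adjusted p = 0.555), with -0.32 in experiment 1 and 1.17 in experiment 2. Leukocyte markers, of cells that the lineage depletion aims to remove, summed to 4.74 and 11.3 FPKM in the reporter positive libraries, against 5.92 and 4.62 FPKM in the reporter negative libraries, with Tyrobp at 0.933 and 3.46 against 1.53 and 1.02 FPKM and Ptprc at most 0.362 FPKM. The library highest in Il1b was also the highest in these markers, whose part in the Il1b level was not tested.

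Il1rn (ENSMUSG00000026981, chromosome 2, 24192373 to 24207014, plus strand) encodes the IL-1 receptor antagonist and was above Il1a and Il1b in every library. It stood at 34.8 and 34.6 FPKM in the reporter positive libraries, against 25.5 and 28.1 FPKM in the reporter negative libraries. The groups did not overlap, but the log2 fold change of 0.37 ± 0.14 did not pass (limma, adjusted p = 0.187). Unlike Il33, Il1rn had FPKM listed on forms from both of its main starts. The upstream form (ENSMUST00000114487) starts 8457 bases before the downstream form (ENSMUST00000114482). Its annotated product of 159 residues is the one kept inside keratinocytes, while the downstream form encodes the secreted antagonist of 178 residues. The upstream form stood at 17.5 and 19.4 FPKM in the reporter positive libraries, against 11.5 and 14.7 FPKM in the reporter negative libraries. The downstream form stood at 17.3 and 15.2 FPKM in the reporter positive libraries, against 13.9 and 13.4 FPKM in the reporter negative libraries. Both forms were higher in each reporter positive library than in any reporter negative one. Per Il1a level, Il1rn was 5.3 and 3.73 times as high in the reporter positive libraries, against 6.85 and 7.78 times in the reporter negative libraries.

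Il18 (ENSMUSG00000039217, chromosome 9, 50383378 to 50389942, plus strand) stood at 7.19 and 13.9 FPKM in the reporter positive libraries, against 28.4 and 47.4 FPKM in the reporter negative libraries. Both reporter positive libraries were below both reporter negative ones, and in each fraction experiment 2 was the higher. The means were 10.6 ± 4.77 FPKM in reporter positive cells and 37.9 ± 13.5 FPKM in reporter negative cells (SD, n = 2 each). The log2 fold change of -1.77 ± 0.39 did not pass without the block (limma, adjusted p = 0.0744) and passed with it (0.0109), with -1.84 in experiment 1 and -1.70 in experiment 2. The transcript split also differed. Forms assembled from the reads, which began 16.8 and 9.93 kb upstream of the annotated start in the reporter positive libraries and 20.5 and 20.4 kb upstream in the reporter negative ones, held 100% of Il18 in both reporter positive libraries, against 58.9% and 49.9% in the reporter negative libraries. The annotated form of Il18 (ENSMUST00000059081) was listed at 0 in both reporter positive libraries, and at 11.7 and 23.8 FPKM in the reporter negative ones. These zeros can be failed estimates. This form encodes the precursor of 192 residues, but so do other annotated forms (ENSMUST00000180021 and ENSMUST00000214117). What the assembled forms encode was not tested, so the zeros do not show that mRNA for the precursor was absent. With annotated forms alone the log2 fold change became -4.15 (limma, adjusted p = 0.0487), a value that rests on the zeros listed in the reporter positive libraries. With the most abundant transcript of each library it was -0.92 and did not pass (limma, adjusted p = 0.236).

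Il24 (ENSMUSG00000026420, chromosome 1, 132778651 to 132784031, minus strand) was second to Il33 among the 10 genes in reporter positive cells. It stood at 44.5 and 48.6 FPKM in the reporter positive libraries, against 30.7 and 39.8 FPKM in the reporter negative libraries. The groups did not overlap, and the log2 fold change of 0.40 ± 0.18 did not pass (limma, adjusted p = 0.237, and 0.121 with the block). An annotated transcript (ENSMUST00000164265) carried 83.9% and 78.6% of Il24 in the reporter positive libraries, against 82.2% and 75.8% in the reporter negative libraries. The listed split between forms was thus alike to within the difference between experiments. Other forms (ENSMUST00000121040 and ENSMUST00000027679) were listed at 0 in each library though marked as fully supported by reads. These zeros can be failed estimates, and so can the split. The neighbouring gene Il19, of the same cytokine group, stood at 6.67 and 8.88 FPKM in the reporter positive libraries, against 6.32 and 8.33 FPKM in the reporter negative libraries. The levels of Il19 overlapped between the fractions.

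Among the receptors, Il1r2 (ENSMUSG00000026073, chromosome 1, 40141613 to 40182064, plus strand), the decoy for IL-1, had the largest difference of the 9 tested genes. It stood at 1.11 and 5.04 FPKM in the reporter positive libraries, against 20.3 and 37 FPKM in the reporter negative libraries. The reporter positive libraries were below both reporter negative ones, and experiment 2 was the higher in each fraction. The means were 3.07 ± 2.78 FPKM in reporter positive cells and 28.6 ± 11.8 FPKM in reporter negative cells (SD, n = 2 each), 9.31 times as much in the reporter negative cells. The log2 fold change of -2.99 ± 0.58 did not pass without the block (limma, adjusted p = 0.059) and passed with it (0.0104), with -3.33 in experiment 1 and -2.65 in experiment 2. With 1 library left out it was -3.75 (reporter positive replicate 2 left out) to -2.23 (reporter positive replicate 1 left out) and did not pass (limma, adjusted p = 0.0783 to 0.194). Il1r2 was carried whole by its full-length form (ENSMUST00000027243), which encodes 410 residues, in every library. Set against the ligand, Il1r2 was 0.169 and 0.543 times Il1a in the reporter positive libraries, against 5.45 and 10.2 times in the reporter negative libraries, a ratio formed after the values were seen.

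The summed levels of antigen presentation and stromal markers, like Il1r2 and Il18, stood lower in the reporter positive library of each experiment, though not every marker did. Of the tested markers, 3 of 3 in the Langerhans cell list and 4 of 6 in the fibroblast list were lower in both experiments, and Cd86, below 1 FPKM and not tested, was higher in both. In the fibroblast list, Col6a3 passed the filter only through the reporter negative libraries. The share of all genes that were lower in both experiments was not computed. By a stricter criterion, both reporter positive libraries were below both reporter negative ones in 42.6% of all 11969 tested genes, and above in 15.3%. In the macrophage and neutrophil list 5 of 5 tested markers were higher in both experiments. Of these, Cxcr2 passed the filter only through the reporter positive libraries. Among the untested markers of that list, all below 1 FPKM, Ly6g was lower in both experiments, and Itgam and Mrc1 were higher in both. The Langerhans cell list summed to 18.5 and 39.5 FPKM in the reporter positive libraries, against 52 and 81.5 FPKM in the reporter negative libraries, mostly from Cd74 at 8.39 and 17.5 against 25.6 and 42 FPKM. The defining marker Cd207 stayed at or below 0.201 FPKM in each library. Fibroblast markers summed to 13.5 and 29.2 FPKM in the reporter positive libraries, against 28.7 and 44.6 FPKM in the reporter negative libraries. Endothelial markers summed to 2.64 and 3.1 FPKM in the reporter positive libraries, against 4.19 and 11.5 FPKM in the reporter negative libraries. Mast cell markers summed to 2.44 and 4.52 FPKM in the reporter positive libraries, against 4.76 and 2.02 FPKM in the reporter negative libraries. Bulk RNA was measured, in which fewer cells of a type and less RNA per cell cannot be told apart, and the part of these markers in the Il1r2, Il18 and Tslp levels was not tested.

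Il1rap (ENSMUSG00000022514, chromosome 16, 26581790 to 26730203, plus strand), the signalling chain that the receptors for IL-1, IL-33 and IL-36 share, stood at 5.66 and 10.2 FPKM in the reporter positive libraries, against 5.79 and 9.97 FPKM in the reporter negative libraries. The experiments differed and the fractions did not stand apart. The log2 fold change was 0.00 ± 0.37 (limma, adjusted p = 0.999), with -0.03 in experiment 1 and 0.03 in experiment 2. The transcript of the membrane form of 570 residues (ENSMUST00000023156) carried at least 80.5% of it in each library. That of a shorter form of 360 residues (ENSMUST00000174202) was listed at 0 in all 4 libraries. It was marked as fully supported by reads in the reporter negative library of experiment 2, so that 0 can be a failed estimate.

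Il1rl1 (ENSMUSG00000026069, chromosome 1, 40486415 to 40522260, plus strand), which encodes the IL-33 receptor ST2, was close to the floor of the assay. It stood at 0.0398 and 0.0892 FPKM in the reporter positive libraries, against 0.0453 and 0.105 FPKM in the reporter negative libraries. Its listed transcripts encode the transmembrane receptor of 567 residues (ENSMUST00000053043) and the soluble one of 337 residues (ENSMUST00000173514 and ENSMUST00000174335). The upper bound of the deposited interval of any Il1rl1 transcript was at most 0.295 FPKM. No fold change was formed from these values, and a difference between the fractions was not detectable at this depth. Il33 stood at 137 FPKM or more in reporter positive cells whose libraries held less than 0.1 FPKM of its receptor gene.

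**Figure D3:**
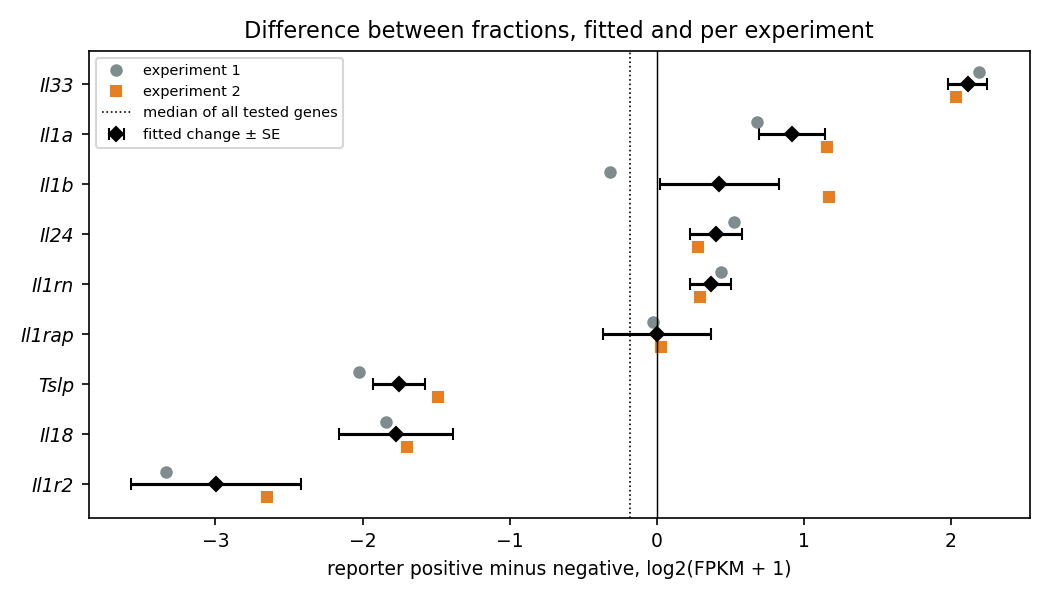
Difference between reporter positive and reporter negative cells on the log2(FPKM + 1) scale for the 9 tested genes, as fitted over 4 libraries (diamond, bar: SE) and in each experiment (grey circle and orange square). Il33 at 2.11 and Il1r2 at -2.99 are at the ends, and Il1b is the gene whose experiments lie farthest apart on opposite sides of 0.

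In reporter positive cells the order of mean levels was Il33, Il24, Tslp, Il1rn, Il18, Il1a, Il1rap, Il1r2, Il1b and Il1rl1. The libraries of neighbours overlapped for Tslp and Il1rn, for Il18 and Il1a, for Il1a and Il1rap, and for Il1r2 and Il1b. In reporter negative cells the order was Tslp, Il18, Il24, Il33, Il1r2, Il1rn, Il1rap, Il1a, Il1b and Il1rl1. There, the levels from Il18 down to Il1rn overlapped from each gene to the next, and Tslp stood above them with 125 FPKM on average.

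Of the other IL-1 family ligands, 4 of 5 were tested, and the counts were 1 higher, 0 lower and 3 not past the threshold (median log2 fold change 0.88). Here and in the lists below, such counts stand beside 2.55% called higher and 2.52% called lower among all 11969 tested genes. The gene that rose was Il1f8, which encodes IL-36β, at 8.77 and 9.83 FPKM in the reporter positive libraries, against 4.11 and 3.31 FPKM in the reporter negative libraries (log2 fold change 1.13 ± 0.19, limma, adjusted p = 0.0483). Il1f9, which encodes IL-36γ, the most abundant of the 4, stood at 57.5 and 76.1 FPKM in the reporter positive libraries, against 34.4 and 31.1 FPKM in the reporter negative ones (limma, adjusted p = 0.0545, and 0.0385 with the block). Il1f6, which encodes IL-36α, stood at 1.03 and 1.06 FPKM in the reporter positive libraries, against 0.401 and 0.0375 FPKM in the reporter negative libraries. The IL-36 antagonist gene Il1f5 stood at 5.61 and 8.63 FPKM in the reporter positive libraries, against 4.99 and 5.09 FPKM in the reporter negative libraries. All 4 tested ligand genes were higher in reporter positive cells in both experiments, and 3 of them missed the threshold. The share of all tested genes that were higher in both experiments was not computed. Il1f6 passed the filter on low values only through the reporter positive libraries, so its direction, also counted in the median, supports nothing about the list. The fifth ligand gene, Il1f10, was below the filter, at 0.0769 and 0.329 FPKM in the reporter positive libraries, against 0.345 and 0.364 FPKM in the reporter negative libraries.

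Of the 8 other receptor genes, 3 were tested and 0 passed in either direction, also with the block, while 0 had an unadjusted p under 0.05 in the limma fit. Their median log2 fold change was -0.78, the value of Il1r1. All 3 reached 1 FPKM in both libraries of the reporter negative fraction alone, so their direction and this median support nothing about the list. Il1r1, the signalling receptor for IL-1, stood at 0.898 and 1.62 FPKM in the reporter positive libraries, against 2.05 and 3.8 FPKM in the reporter negative libraries (limma, adjusted p = 0.21). The IL-36 receptor gene Il1rl2 stood at 8.53 FPKM in the reporter positive library of experiment 1 and was listed at 0 in that of experiment 2, against 3.55 and 23.6 FPKM in the reporter negative libraries. The inhibitory receptor gene Sigirr stood at 0.726 and 1.13 FPKM in the reporter positive libraries, against 1.17 and 1.28 FPKM in the reporter negative libraries. The signalling receptor genes Il1r1 and Il1rl1 were at or below 3.8 FPKM in each library, and below the decoy gene Il1r2 in each. The margin was narrow in the reporter positive library of experiment 1, with Il1r1 at 0.898 and Il1r2 at 1.11 FPKM.

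The TSLP and IL-20 group partners gave 1 higher, 1 lower and 9 that did not pass among 11 tested of 17 (median log2 fold change -0.13, and 0.05 after median-of-ratios scaling). Il20ra, a receptor chain for IL-19, IL-20 and IL-24, stood at 0.264 and 0.285 FPKM in the reporter positive libraries, against 2.26 and 3.6 FPKM in the reporter negative libraries (log2 fold change -1.60 ± 0.25, limma, adjusted p = 0.0402). Il22ra1, another chain that pairs with Il20rb for IL-20 and IL-24, stood at 1.34 and 1.48 FPKM in the reporter positive libraries and was listed at 0 in both reporter negative libraries (limma, adjusted p = 0.0392). Both genes passed the filter on low values through the fraction where they were high, so these 2 calls support nothing about the list, and that of Il22ra1 rests on zeros that can be failed estimates. The shared partner chain Il20rb stood at 16.2 and 21.9 FPKM in the reporter positive libraries, against 26.6 and 39.8 FPKM in the reporter negative libraries (limma, adjusted p = 0.163, and 0.0407 with the block). The TSLP receptor gene Crlf2 stood at 5.71 and 6.35 FPKM in the reporter positive libraries, against 7.93 and 6.15 FPKM in the reporter negative libraries, and the levels overlapped. The IL-7 receptor chain gene Il7r stayed at or below 0.0898 FPKM in each library.

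Of 28 genes that process or release these cytokines 18 were tested, with 1 higher, 0 lower and 17 not past the threshold (median log2 fold change 0.06). The pore-forming gasdermin gene Gsdma was the one, at 6.34 and 10.1 FPKM in the reporter positive libraries, against 1.42 and 0.319 FPKM in the reporter negative libraries (log2 fold change 2.34 ± 0.38, limma, adjusted p = 0.0451). Gsdma passed the filter on low values only through the reporter positive libraries, so this call supports nothing about the list. Casp1, whose product cuts the precursors of IL-1β and IL-18, stood at 42.8 and 41.9 FPKM in the reporter positive libraries, against 46.6 and 41.7 FPKM in the reporter negative libraries, and overlapped. The inflammatory caspase gene Casp4 stood at 1.09 and 1.56 FPKM in the reporter positive libraries, against 3.46 and 4.11 FPKM in the reporter negative libraries (limma, adjusted p = 0.0673, and 0.0434 with the block). Cast, which encodes the inhibitor of the calpains that trim pro-IL-1α, stood at 129 and 163 FPKM in the reporter positive libraries, against 81.4 and 93.2 FPKM in the reporter negative libraries (limma, adjusted p = 0.0876, and 0.0308 with the block).

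In the MyD88 signal chain downstream of these receptors 16 of 19 genes were tested, and with limma 0 passed in either direction (median log2 fold change 0.12). The 3 with the smallest p were Peli2, a Pellino ubiquitin ligase, Tifa, a TRAF-interacting adaptor, and Irak2, a receptor-associated kinase, with adjusted p of 0.146, 0.149 and 0.162 (limma). At an unadjusted p under 0.05 (limma) these 3 of the 16 genes passed, beside 3062 of all 11969 tested genes. Peli2 was lower, and Tifa and Irak2 were higher, in reporter positive cells in both experiments. With the block 0 passed after adjustment.

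Other alarmins and damage-associated proteins gave 2 higher, 0 lower and 4 that did not pass among 6 tested of 7 (median log2 fold change 1.41). Among all tested genes 2.55% were called higher and 2.52% lower. Anxa1, which encodes the lipid-binding annexin A1, stood at 2149 and 2463 FPKM in the reporter positive libraries, against 764 and 713 FPKM in the reporter negative libraries (log2 fold change 1.64 ± 0.19, limma, adjusted p = 0.0239). Nucb2, a calcium-binding nucleobindin that is not established as an alarmin, stood at 25.2 and 25.7 FPKM in the reporter positive libraries, against 11.9 and 9.56 FPKM in the reporter negative libraries (log2 fold change 1.18, limma, adjusted p = 0.036). Hmgb1, a chromatin protein released on damage, stood at 28.9 and 21.7 FPKM in the reporter positive libraries, against 54.1 and 49 FPKM in the reporter negative libraries (limma, adjusted p = 0.0545, and 0.0245 with the block). S100a9, a calprotectin subunit made by neutrophils and by stressed keratinocytes, stood at 972 and 1185 FPKM in the reporter positive libraries, against 268 and 76.5 FPKM in the reporter negative libraries (limma, adjusted p = 0.0674, and 0.0391 with the block). The macrophage and neutrophil list, which holds its partner gene S100a8, summed to 1221 and 1519 FPKM in the reporter positive libraries, against 433 and 123 FPKM in the reporter negative libraries, nearly all of it S100a8 itself. Without S100a8 the list summed to 17.5 and 25.8 FPKM in the reporter positive libraries, against 11.2 and 11.8 FPKM in the reporter negative libraries, and its part in the S100a9 level was not tested.

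Each of the 6 calls in these lists was lost without any 1 of the 4 libraries, where the adjusted p ran from 0.0577 to 0.315 (limma), while each of the 6 log2 fold changes kept its sign.

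**Figure D4:**
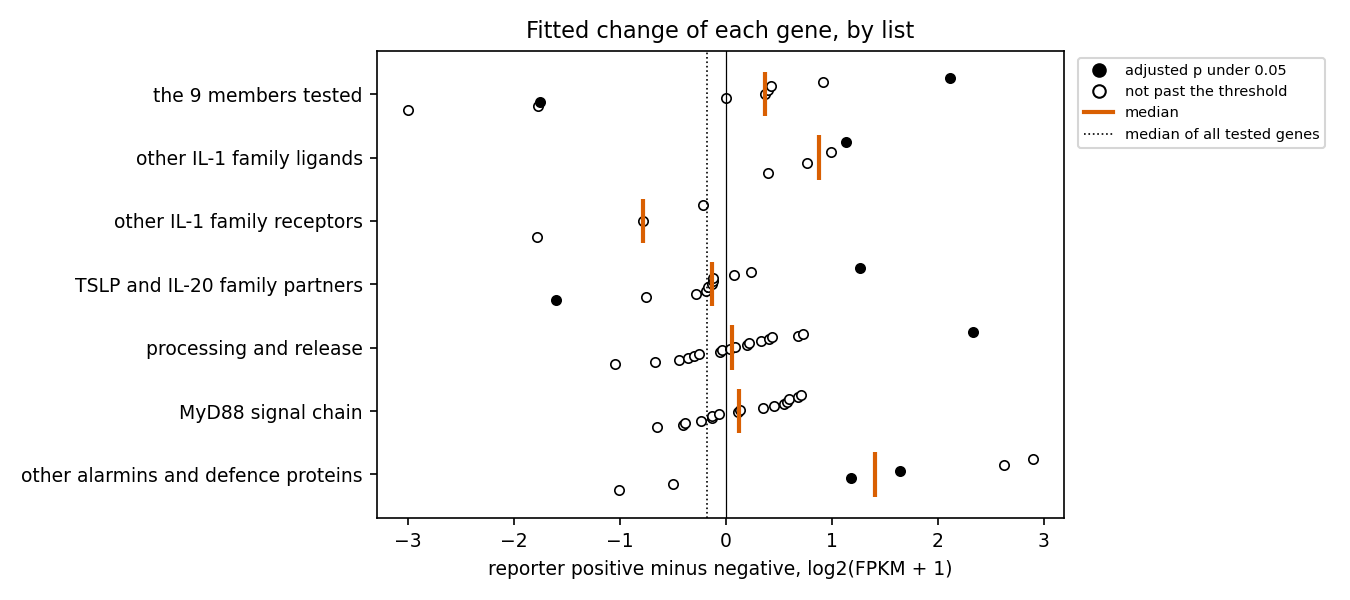
Fitted change of each tested gene on the log2(FPKM + 1) scale, reporter positive minus reporter negative, by list, with filled circles for an adjusted p under 0.05, an orange line at the median of the list and a dotted line at the median of all tested genes, -0.18. Among the lists drawn, the other alarmins have the highest median, 1.41, and the other IL-1 family receptors the lowest, -0.78. The receptor median rests on 3 genes that passed the filter through the reporter negative libraries, so it supports nothing about that list.

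The genes whose pattern over the 4 libraries was most like that of Il33 were found by the Euclidean distance between centred log2(FPKM + 1) values, among 7168 protein-coding genes with a mean of at least 5 FPKM. They were Nbeal2 (distance 0.0958), which encodes a protein of granule formation in platelets, Ptgr1 (0.164), a prostaglandin reductase, Cyp4f39 (0.239), a cytochrome P450 that hydroxylates very long chain fatty acids in the epidermis, Mal2 (0.26), an apical transport protein, and Klk10 (0.264), a kallikrein-type protease. Nbeal2, the nearest, stood at 17.8 and 17.3 FPKM in the reporter positive libraries, against 3.36 and 3.54 FPKM in the reporter negative libraries. Likeness over 4 libraries of 2 groups is a description of level patterns and no more.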

How the data were processed

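Libraries were built from extracted RNA by an Illumina kit for mRNA, as the labels' protocols state. Reads were aligned by the authors with TopHat, and abundances estimated with Cufflinks, on mm9, per the submitters' processing notes. Tool versions: not given in the sources used here. Per the file headers, each deposited table gives an FPKM (relative to transcript length and library depth), an interval and a coverage for every transcript, both Ensembl forms and forms assembled in that library. The same reads may therefore sit on an assembled form in 1 library and on an annotated one elsewhere. FPKM are not counts, so no count model was used.

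Transcripts of at least 200 exonic bases were summed per gene with Python 3.11.15 and pandas 2.3.3. Shorter ones held 95.1% to 98.9% of all deposited FPKM and were left out. GENCODE M21 gave names to 84047 of 96734 reference transcripts by their identifiers, and the gene identifier in the files to 5138, and the others, with all assembled forms, went to the gene whose exons held at least 50% of their length. Named genes held 87.1% to 89.9% of the FPKM kept. Coordinates are those of the files (mm9), except the promoters. Promoters of 8 of the 10 genes were matched by symbol in RefSeq. Depth in aligned bases is the ratio of coverage to FPKM. Read numbers are unknown, and deposited intervals cover counting error only.

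The test was limma 3.58.1 in R 4.3.3 (eBayes with trend), over genes that reached 1 FPKM in 2 or more libraries, on log2(FPKM + 1), positive minus negative. P-values are two-sided and adjusted over 11969 genes by Benjamini-Hochberg, with a threshold of 0.05. Changes on this scale understate those of low genes. Before adjustment, 3062 genes had p under 0.05. The fit was tested on simulated data. No exact permutation test was run, since with 2 libraries a group its smallest p is 0.333. The experiment number in the titles was taken to mark a shared experiment, which would pair the libraries, though the labels state no block. The deviations of same-numbered libraries from their group means correlated across 11969 genes (Pearson's r of 0.174, Spearman's rho of 0.377), and genes are not independent replicates. A fit with the experiment as a block was an alternative, beside other pseudocounts, filters, scalings, transcript sums, robust estimation, zeros left out and 1 library left out.

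A 0 can be a failed estimate, so such genes are given as listed at 0. The text names the 10 genes, every gene past the threshold in each pathway list and otherwise up to 3 with the smallest p, and the 5 genes most like Il33. Il19, Crlf2, Il7r, Casp1, Il1f5 and Il1f10 were added after their values were seen. The members and lists were chosen with earlier results of these data known.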

Additional observations from a re-analysis of the deposited data

Results flagged for a closer look

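The experiments gave differences of opposite sign in 6 of the tested genes named in the text, and the difference between experiments was not tested in any of them. Other genes of the lists that the text does not name also differed in sign. Il1rl2, the IL-36 receptor gene, differed by 1.07 on the log2(FPKM + 1) scale in experiment 1 and by -4.62 in experiment 2, reporter positive minus reporter negative, and it was listed at 0 in the reporter positive library of experiment 2. Il1b differed by -0.32 in experiment 1 and by 1.17 in experiment 2. Il1rap differed by -0.027 in experiment 1 and by 0.029 in experiment 2. Crlf2, the TSLP receptor gene, differed by -0.41 in experiment 1 and by 0.0396 in experiment 2. Casp1 differed by -0.12 in experiment 1 and by 0.0075 in experiment 2. The leukocyte marker Tyrobp differed by -0.39 in experiment 1 and by 1.14 in experiment 2.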

How the results depend on the processing

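Il33 kept its direction under all 16 alternatives tried, at 1.99 to 2.32 on the log2 scale, and passed in 12. Tslp kept its direction under the same 16, at -1.92 to -1.52, and passed in 10. Without a filter on low values neither passed (limma, adjusted p = 0.0536 for Il33 and 0.0738 for Tslp).

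The number of genes past the threshold, 607 as reported, was 4 without a filter, 1250 with the replicate block, 1209 with genes listed at 0 left out, 95 with reference transcripts alone, 312 with the most abundant transcript of each gene, 973 with robust estimation, and 3144 with the block and genes listed at 0 left out, a combination added after the data were seen. With 1 library left out it was 3 to 179, from 179 without reporter negative replicate 1 to 3 without reporter negative replicate 2. The lone library of a group is then assumed to vary like the other group. Of the 10 genes, the number called higher, 1 as reported, was 0 without a filter, 2 with genes listed at 0 left out, 2 with that and the block, and 0 to 1 with 1 library left out. The number called lower, 1 as reported, was 2 with a pseudocount of 5, 0 without a filter, 3 with the block, 3 with genes listed at 0 left out, 3 with both, and 0 with any 1 library left out. The pseudocount of 5 brought in Il1r2, at -2.06 (limma, adjusted p = 0.0438).

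Scaling moved the split over all genes, 305 higher and 302 lower as reported, to 419 and 195 with median-of-ratios scaling and to 407 and 252 with quantile normalization. The sign reversed for Il1b at -0.077 without reporter positive replicate 2, in a range of -0.077 to 0.93 with 1 library left out. It reversed for Il1rap at -0.24 with reference transcripts alone, -0.24 with the most abundant transcript, -0.35 without reporter negative replicate 1 and -0.37 without reporter positive replicate 2, in a range of -0.37 to 0.38 with 1 library left out. The cause was not tested. With 2 libraries a group, replication limits the precision, and a gene that did not pass is not shown to be unchanged.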
